A study of Mus musculus with 16 samples.

Results

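Expression of the semaphorin, ephrin, Slit, Robo and netrin families was followed through Pax3:Foxo1a knockdown and across DNA content in mouse alveolar rhabdomyosarcoma (aRMS) cells. A gene was a member if its symbol in the array annotation named a semaphorin of classes 3 to 7, a plexin, a neuropilin, an Eph receptor, an ephrin, a Slit, a Robo or a netrin. This rule took 59 genes with 90 probes, out of 16593 named genes with 23978 named probes. The rule itself used no measured value, but the families were chosen with earlier results of these data known.

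All cells came from a tumor culture of the conditional aRMS mouse, in which Myf6Cre, driven in maturing muscle, acts on the Pax3:Foxo1a allele and on conditional p53, so control and knockdown cells share all 3 alleles. The fusion transcript also encodes eYFP, as its second reading frame, and cells received either 10 nM of an eYFP siRNA (siYFP, knockdown) or a control siRNA before sorting by DNA content into 2N (labelled G1), 3N (S) and 4N (G2/M) cells. Each of the 2N and 4N groups held 3 arrays, 1 from each of 3 experiments, and each 3N group held 2 arrays, from experiments 1 and 2. Neither the age of the mouse nor which culture went onto the arrays was given. Because 1 siRNA sequence was used, loss of the fusion cannot be told apart from a response to that RNA duplex, and in these bulk samples fewer cells expressing a gene and less RNA per cell cannot be distinguished either.

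These families were first known as cues that steer growing axons and are used again in muscle, vessels and tumors to set where cells move and stick. Class 3 semaphorins are secreted, and most bind a neuropilin, which carries the signal through a plexin, while the membrane-bound classes bind plexins directly. Ephrins are held on the cell surface, the A class by a lipid anchor and the B class by a transmembrane segment, and activate Eph receptor tyrosine kinases on the neighbouring cell. Slits signal through Robo receptors, and netrins through Dcc, neogenin and the Unc5 receptors.

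The promoters of 4 members are shown because the results turn on these genes: the member with the largest fall and the one with the largest rise after knockdown in 4N cells, the secreted semaphorin that rose in 2N and 4N cells, and an Eph receptor whose 3N and 4N knockdown values lay on opposite sides of 0. Each sequence runs 5′ to 3′ over 250 bases before and 50 after the start of the gene, from RefSeq on GRCm38.p6, with capitals marking an E-box (CAGCTG, a palindrome) or a paired domain core (GTCACG).
Sema7a (chr9:57939862-57940161, plus strand): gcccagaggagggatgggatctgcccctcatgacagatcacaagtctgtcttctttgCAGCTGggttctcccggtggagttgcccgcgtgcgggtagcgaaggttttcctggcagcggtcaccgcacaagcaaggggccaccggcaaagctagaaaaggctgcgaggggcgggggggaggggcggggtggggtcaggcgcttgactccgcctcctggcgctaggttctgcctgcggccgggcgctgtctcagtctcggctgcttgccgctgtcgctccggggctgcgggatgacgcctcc
Efnb2 (chr8:8661193-8661492, minus strand): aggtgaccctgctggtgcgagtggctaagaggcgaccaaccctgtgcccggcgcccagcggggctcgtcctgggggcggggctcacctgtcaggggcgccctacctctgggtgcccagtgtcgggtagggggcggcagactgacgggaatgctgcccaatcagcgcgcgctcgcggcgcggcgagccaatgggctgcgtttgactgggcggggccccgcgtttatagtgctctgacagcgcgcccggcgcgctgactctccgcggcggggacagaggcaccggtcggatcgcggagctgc
Sema3a (chr5:13396534-13396833, plus strand): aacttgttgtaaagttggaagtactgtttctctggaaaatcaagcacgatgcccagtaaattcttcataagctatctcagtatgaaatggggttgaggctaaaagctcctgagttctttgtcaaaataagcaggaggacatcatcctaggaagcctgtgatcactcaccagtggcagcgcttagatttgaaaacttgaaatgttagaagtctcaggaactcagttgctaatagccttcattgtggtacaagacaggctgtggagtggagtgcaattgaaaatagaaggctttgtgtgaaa
Epha4 (chr1:77515039-77515338, minus strand): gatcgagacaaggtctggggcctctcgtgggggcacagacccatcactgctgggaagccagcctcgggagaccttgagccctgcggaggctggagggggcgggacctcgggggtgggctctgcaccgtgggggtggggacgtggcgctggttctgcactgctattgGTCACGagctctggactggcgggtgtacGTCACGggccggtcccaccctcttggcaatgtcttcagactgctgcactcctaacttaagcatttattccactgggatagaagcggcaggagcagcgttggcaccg

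Of the 59 members, 51 had such a promoter. The motifs searched, on both strands, were the forkhead core GTAAACA, the paired domain core GTCACG, the palindromic paired homeodomain site and the E-box CAGCTG, and none of these overlaps another in the promoters printed. GTCACG was found in the promoters of 5 members (Efna3, Efna5, Epha4, Epha6 and Sema4b) and in 8.22% of the 32851 RefSeq promoters of this length. The Epha4 promoter held it at both 84 and 56 bases before the start. CAGCTG was found in 12 members, among them Sema7a at 193 bases before the start, and in 16.3% of all promoters. GTAAACA and the homeodomain site were in the promoter of 0 members, and in 3.65% and 0.487% of all promoters. A member counted if any of its promoters held the motif (65 promoters for 51 members). The shares are of single promoters, so they differ in unit from the counts. The promoters also differed in base composition: Sema3a held 2 CpG dinucleotides and 41.3% G and C, against 35 CpG and 72.3% for Efnb2, with a median of 17 CpG over the members' promoters and 7 over all. These are descriptions of letters in a window, and binding was not measured here.

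Each sample was hybridised alone, in 1 colour, to an Illumina MouseRef-8 v2 BeadChip, on which 12535 to 13135 probes were detected, with correlations of 0.988 to 0.994 between replicate arrays. Levels are given as log2 of the background-corrected, quantile-normalised signal of the brightest probe of a gene, a scale on which 1 unit is a doubling. Nothing in the labels says whether the experiments used separate cultures, so p-values measure the spread between these samples. The Foxo1 probe, which was not placed against the breakpoint of the fusion, fell after knockdown by 0.85, 0.89 and 0.70 in 2N, 3N and 4N cells. The sort was reflected in the control cells, where 8 of 9 G2/M genes were higher and 10 of 10 G1/S genes lower in 4N than in 2N cells. Against 2N control cells, 7 of 9 G2/M genes were higher and 6 of 10 G1/S genes lower in 3N control cells. In 2N knockdown cells, 3 of 9 G2/M and 4 of 10 G1/S genes were lower than in 2N control cells. Of 17 skeletal muscle lineage genes with a probe, 11 were detected, including Des, Myog and Myf5, while the probes of Myod1, Pax7, Msc and Vgll2 were detected on 0 arrays. Of 15 endothelial markers 14 were detected on 0 arrays, Pecam1, Cdh5, Tek and Tie1 among them, and of 11 immune markers 7 were, Ptprc among them.

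Of the 59 members, 33 were measured, meaning that a probe was detected (detection p under 0.05) on at least 3 arrays, and 26 were not. Of those 26, 21 were detected on 0 arrays and 5 (Ephb3, Plxna1, Plxnc1, Plxnd1 and Sema4g) on 1 or 2. The measured set held 11 of 18 semaphorins, 2 of 8 plexins, both neuropilins, 6 of 8 ephrins, 7 of 13 Eph receptors, 3 of 3 Robos, 2 of 4 netrins and 0 of 3 Slits. The 3 Slits, ligands of the Robos, and Ntn1 and Ntn4 were among the genes detected on 0 arrays, as were Sema3d, Sema3g, Sema4f, Sema6a, Sema6b and Sema6c, the plexins Plxna3, Plxna4 and Plxnb3, the ephrins Efna2 and Efna3, and the receptors Epha5, Epha6, Epha10, Ephb1 and Ephb6. A probe that is not detected gives only an upper bound on the transcript, and 2 of the measured members passed the filter through one siRNA alone, Epha1 through the knockdown and Sema6d through the control arrays.

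In the fit without experiment as a block, 11 of the 33 measured members changed after knockdown in at least 1 DNA content class. Of these, 5 changed in all 3 classes: Efnb2 and Epha1 rose, and Epha7, Sema6d and Sema7a fell. Of all 9146 genes tested in each comparison, 27.4% passed in at least 1 class and 9.69% in all 3, against 33.3% and 15.2% of the members. In 4N cells 7 members passed an adjusted p of 0.05, 3 higher and 4 lower, which is 21.2% of those measured against 19.1% of all 9146 genes tested (9.83% higher and 9.27% lower). In 2N cells 9 members passed, 5 higher and 4 lower, 27.3% against 21.4% of all genes (10.9% higher and 10.4% lower). In 3N cells 7 passed, 3 higher and 4 lower, 21.2% against 12.9% of 9306 genes (6.46% higher and 6.47% lower). Leaving out any 1 array gave 3 to 9 members in 3N cells, with 3 without the knockdown array of experiment 2 and 4 without either control array. Epha1 and Sema6d reached the test through the siRNA with which they were higher, so the counts were also taken over genes detected with both siRNAs. There 5 of 31 members (16.1%) passed in 4N, 7 (22.6%) in 2N and 5 (16.1%) in 3N cells, against 18.6%, 20.8% and 12.5% of all such genes, and 3 members (9.68%, against 9.35%) passed in all 3 classes. These shares lay near those of all genes and were not compared by a test. With experiment as a block, 12 members passed in 2N, 10 in 3N and 11 in 4N cells, beside 27.9%, 19.9% and 25% of all genes. The median log2 fold change of the members was near 0 in each class (0.0323 in 2N, 0.0392 in 3N and 0.0229 in 4N cells, against -0.0133, -0.0132 and -0.00944 over all genes).

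**Figure D1:**
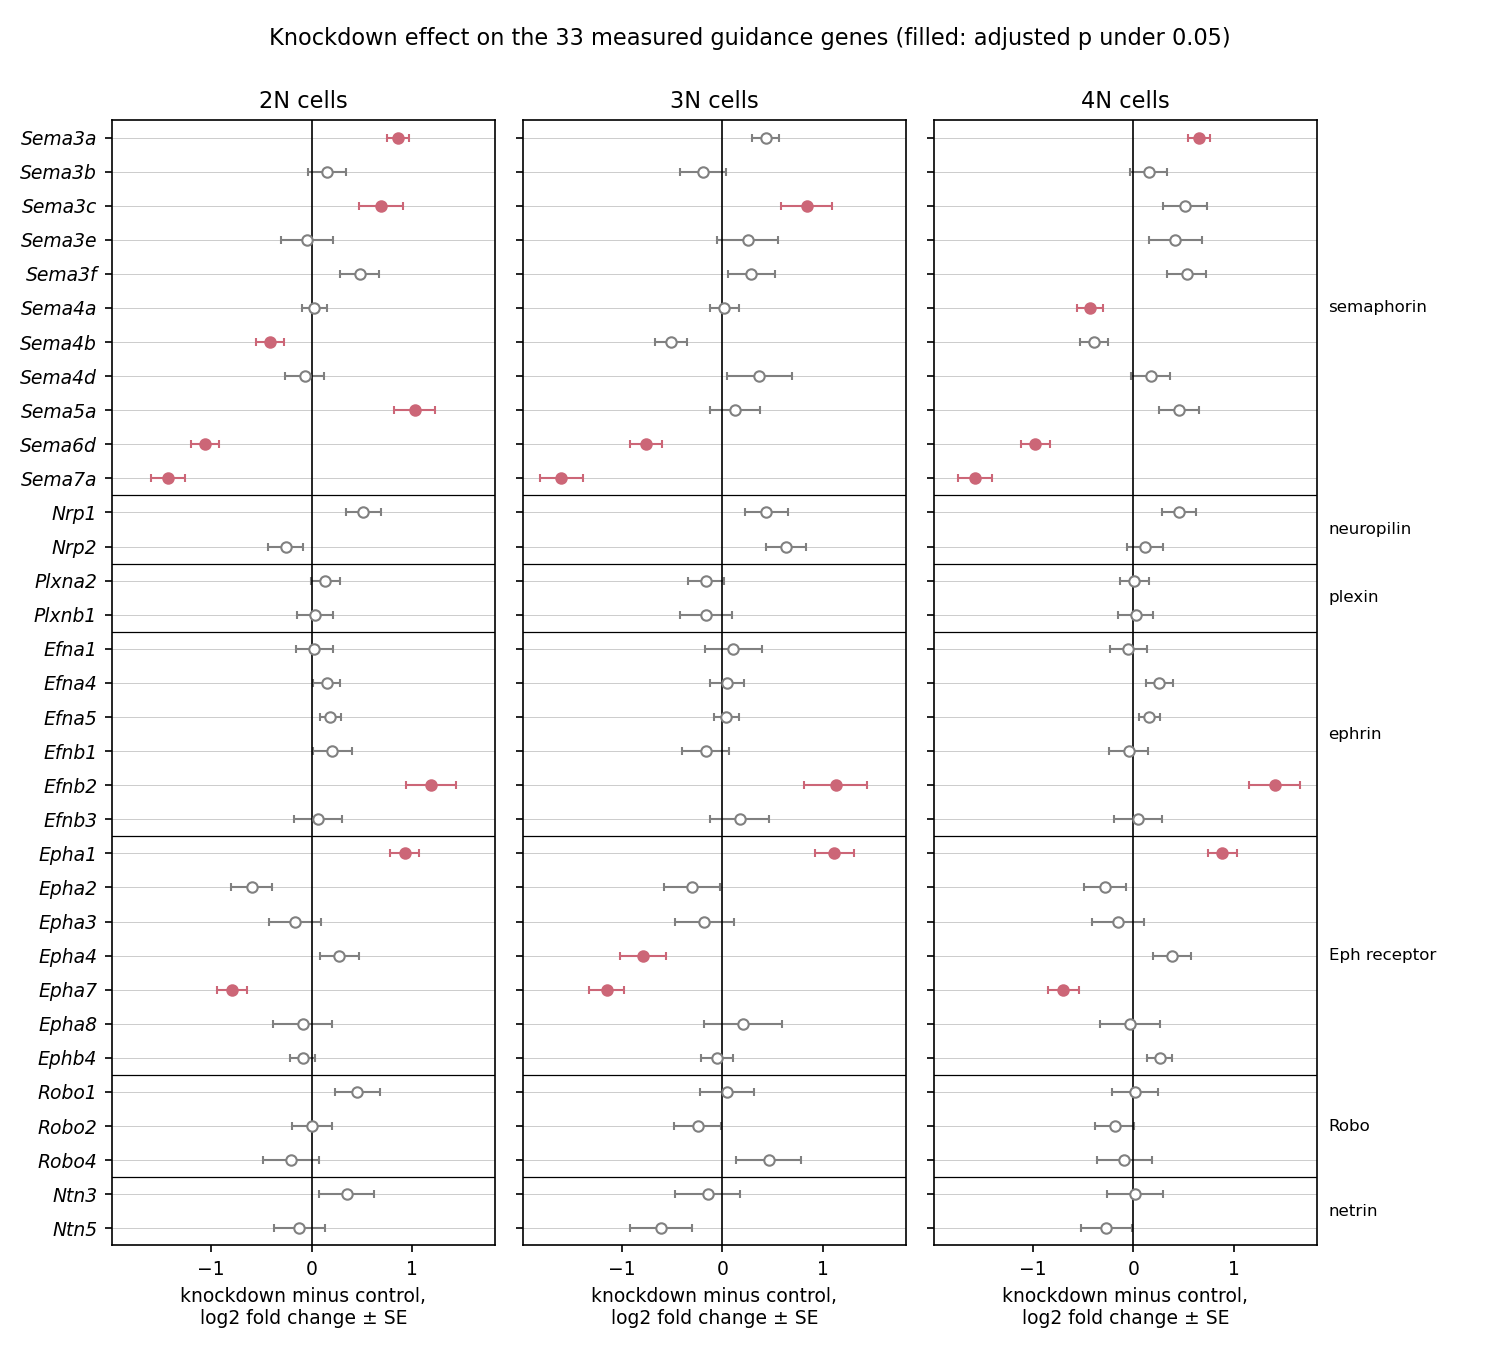
Log2 fold change of knockdown over control (x axis, log2 units, with SE from the limma fit) for the 33 measured guidance genes, grouped by class, in 2N, 3N and 4N cells. Filled points passed an adjusted p of 0.05; Sema7a, Sema6d and Epha7 lie to the left and Efnb2 and Epha1 to the right in all 3 panels, and most other members lie near 0.

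The 2N, 3N and 4N comparisons used separate control samples from the same experiments. Between knockdown and control cells the arrays did not overlap for 12 members in 4N (36.4%, against 37.1% of all genes), 12 in 2N (36.4%, against 36.3%) and 17 in 3N cells (51.5%, against 53% of all genes, with 2 arrays a group). Over the 4 groups of 2N and 4N cells together, a moderated F test passed 13 of 33 members (39.4%, against 35.3% of all genes).

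Among the ligands, Sema7a showed the largest fall. Sema7a is the semaphorin with a glycosylphosphatidylinositol anchor and signals through plexin C1 and beta 1 integrins. In control cells its log2 level was 9.48, 9.64 and 9.28 in 2N, 9.37 and 9.68 in 3N, and 9.43, 9.37 and 9.17 in 4N cells. In knockdown cells it was 7.91, 7.89 and 8.31 in 2N, 7.76 and 8.09 in 3N, and 7.54, 8.11 and 7.58 in 4N cells. Every knockdown array lay below every control array, in each class and across classes. The log2 fold change was -1.43 ± 0.17 (SE, adjusted p = 0.000161) in 2N, -1.60 ± 0.21 (adjusted p = 0.000228) in 3N and -1.58 ± 0.17 (adjusted p = 7.09e-05) in 4N cells, a fall of 2.69 to 3.04 times. Of the receptors, Plxnc1 was detected on 1 array and so was not measured. Itgb1, the beta 1 integrin, singled out here for its role with its values known, rose by 0.36 ± 0.11 in 2N (adjusted p = 0.0361) and by 0.52 ± 0.11 in 4N cells (adjusted p = 0.00638), and its value in 3N cells was 0.39 ± 0.13 (adjusted p = 0.0585).

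Sema6d, a transmembrane semaphorin that binds plexin A1, also fell. Control cells gave 6.39, 6.47 and 6.76 in 2N, 6.09 and 6.02 in 3N and 6.07, 6.21 and 5.75 in 4N cells, and knockdown cells 5.65, 5.29 and 5.50, 5.33 and 5.25, and 5.01, 5.02 and 5.08. These values rest on 1 of 4 Sema6d probes, the others being detected on 0 arrays with either siRNA. The probe used was detected on 7 of 8 control arrays and on 0 of 8 knockdown arrays, so its level after knockdown is a bound. It reached the test through the control arrays, where it was higher, so that a difference was favoured by the filter. Sema6d was at least 1.82-fold lower in 2N, at least 1.30-fold lower in 3N and at least 1.22-fold lower in 4N knockdown cells (adjusted p = 0.000315, 0.00596 and 0.000535). In 4N control cells 2 of 3 arrays detected it. Without the 3N knockdown array of experiment 2 the adjusted p in 3N cells was 0.0544.

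Of the 5 measured class 3 semaphorins, which are secreted, 2 rose in at least 1 class and 0 fell. Sema3a, a repellent of axons that binds neuropilin 1, was 9.23, 9.13 and 9.02 in 2N control and 10.03, 10.13 and 9.82 in 2N knockdown cells, 9.54 and 9.60 against 9.84 and 10.16 in 3N cells, and 9.44, 9.54 and 9.44 against 10.20, 10.17 and 10.00 in 4N cells. The arrays did not overlap in any class. It rose by 0.86 ± 0.11 in 2N (adjusted p = 0.0002) and by 0.65 ± 0.11 in 4N cells (adjusted p = 0.00129). In 3N cells the value was 0.43 ± 0.14 with an adjusted p of 0.0521, or 0.0149 in the fit with experiment as a block.

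Sema3c, a secreted semaphorin that binds both neuropilins, gave 5.25, 5.78 and 5.97 in 2N control and 6.0, 6.65 and 6.43 in 2N knockdown cells, where it rose by 0.69 ± 0.22 (adjusted p = 0.0393). In 3N cells it was 5.48 and 5.33 in controls, on which it was not detected, and 6.09 and 6.40 in knockdown cells, and it was at least 1.41-fold higher (adjusted p = 0.0443). In 4N cells, at 5.18, 5.82 and 5.42 against 5.94, 6.13 and 5.89, the difference was 0.52 ± 0.22 (adjusted p = 0.124, or 0.0223 with the experiment as a block). The groups did not overlap in any class, but the levels lay close to the detection limit. The call in 2N cells was lost on leaving out any of 6 of the 12 arrays, with adjusted p up to 0.147, and that in 3N cells on leaving out any of 10 of the 16, up to 0.259.

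Sema3f, which binds neuropilin 2, gave 10.34, 10.35 and 9.92 in 2N control against 10.95, 10.66 and 10.43 in 2N knockdown cells, and 9.86, 9.60 and 9.19 against 10.23, 10.18 and 9.83 in 4N cells. The differences were 0.48 ± 0.19 (adjusted p = 0.103) and 0.53 ± 0.19 (adjusted p = 0.079), and adding experiment as a block gave adjusted p of 0.00324 and 0.00204. It was higher in each of the 3 experiments in both classes, and the groups overlapped in 4N but not in 2N cells. Sema3b and Sema3e, the other measured class 3 members, had adjusted p above the threshold in all 3 comparisons.

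Sema5a, a transmembrane semaphorin with thrombospondin repeats that binds plexin B3, was 9.48, 9.54 and 9.06 in 2N control and 10.65, 10.20 and 10.30 in 2N knockdown cells, with no overlap, and it rose by 1.02 ± 0.20 (adjusted p = 0.00349). In 3N cells, at 10.06 and 10.13 against 10.49 and 9.95, and in 4N cells, at 9.79, 9.56 and 9.21 against 10.33, 9.86 and 9.72, the groups overlapped. The differences there were 0.13 ± 0.25 (adjusted p = 0.822) and 0.45 ± 0.20 (adjusted p = 0.144, or 0.021 with the experiment as a block). The difference between the 3N and the 2N effect was -0.90 ± 0.32, with an adjusted p of 0.999.

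Of the class 4 semaphorins, which are transmembrane proteins, Sema4a and Sema4b each fell in 1 class. Sema4a fell in 4N cells, where it was 7.46, 7.39 and 6.94 in control and 6.86, 6.84 and 6.80 in knockdown cells, by 0.43 ± 0.13 (adjusted p = 0.0341). In 2N and 3N cells all its arrays lay between 6.67 and 6.96, and the differences were 0.03 ± 0.13 and 0.02 ± 0.15. The call in 4N cells was lost on leaving out any of 5 of the 12 arrays (controls of experiments 1 and 2 and each 4N knockdown array), with adjusted p from 0.0751 to 0.129. Sema4b was 10.47, 10.63 and 10.35 in 2N control and 10.08, 9.88 and 10.23 in 2N knockdown cells and fell by 0.41 ± 0.14 (adjusted p = 0.0482), a call lost on leaving out any of 9 of the 12 arrays. The values in 3N and 4N cells were -0.51 ± 0.16 (adjusted p = 0.0514, or 0.0407 with the experiment as a block) and -0.39 ± 0.14 (adjusted p = 0.0657), and its arrays did not overlap in any class. Sema4d had values between -0.07 and 0.36 that did not pass.

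**Figure D2:**
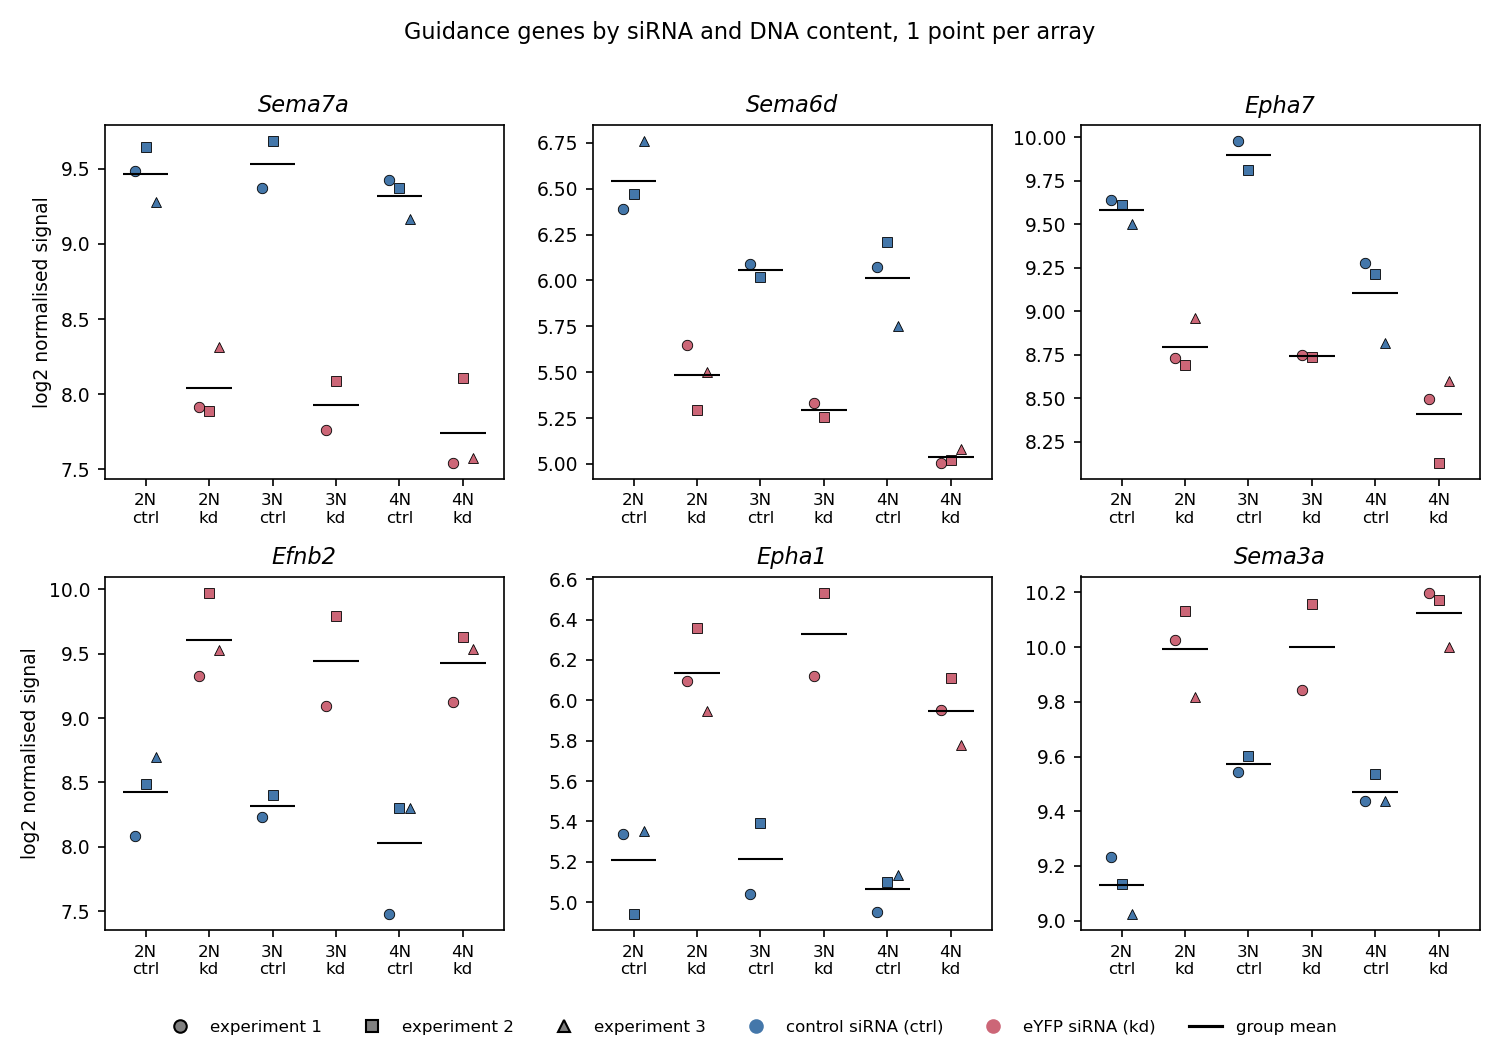
Log2 normalised signal (y axis) on each array for Sema7a, Sema6d, Epha7, Efnb2, Epha1 and Sema3a, by DNA content and siRNA, with the symbol showing the experiment and the line the group mean of 2 or 3 arrays. Control and knockdown arrays are separate within each DNA content class in all 6 panels, with Sema7a near 9.5 in control and near 8 in knockdown cells.

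Of the semaphorin receptors, Nrp1, the neuropilin of Sema3a and also a co-receptor for VEGF, was 11.46, 11.78 and 11.39 in 2N control and 12.24, 12.19 and 11.75 in 2N knockdown cells, 11.30 and 11.79 against 12.01 and 11.95 in 3N cells, and 11.48, 11.79 and 11.30 against 12.13, 12.04 and 11.75 in 4N cells. It was higher after knockdown in every experiment, while the groups overlapped in 2N and 4N cells. The differences were 0.52 ± 0.17 (adjusted p = 0.0523), 0.44 ± 0.22 (adjusted p = 0.221) and 0.45 ± 0.17 (adjusted p = 0.0902) in 2N, 3N and 4N cells. Adding experiment as a block gave 2N and 4N adjusted p of 0.00536 and 0.0113. Nrp2, which binds Sema3f, was not detected on the 3N control arrays, and its 3N difference did not pass (adjusted p = 0.0533, or 0.0262 with the block). The mean of its 3N knockdown arrays lay 1.30-fold above the detection limit of the 3N control arrays. Its differences in 2N and 4N cells were -0.26 and 0.11 and did not pass. The plexins Plxna2 and Plxnb1 had knockdown effects between -0.16 and 0.14, and 0 of both passed.

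Of the 6 measured ephrins, Efnb2 passed the knockdown test, in all 3 classes, and the other 5 did not. Efnb2 is a transmembrane ligand that marks arterial endothelium and binds Ephb4 and other receptors. Its log2 level was 8.08, 8.49 and 8.70 in 2N control and 9.32, 9.97 and 9.53 in 2N knockdown cells, 8.23 and 8.40 against 9.09 and 9.79 in 3N cells, and 7.48, 8.30 and 8.30 against 9.12, 9.63 and 9.54 in 4N cells. Every knockdown array lay above every control array. Efnb2 rose by 1.19 ± 0.25 (adjusted p = 0.00533) in 2N, 1.13 ± 0.31 (adjusted p = 0.0298) in 3N and 1.40 ± 0.25 (adjusted p = 0.0022) in 4N cells, 2.18 to 2.65 times. The 3N call was lost without the control array of experiment 1 (adjusted p = 0.134) or 2 (0.0849) or the knockdown array of experiment 2 (0.265). Of the endothelial markers, 14 of 15 were detected on 0 arrays, and the remaining one, Egfl7, fell in 2N and 4N cells.

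The other 5 measured ephrins, Efna1, Efna4, Efna5, Efnb1 and Efnb3, had knockdown effects between -0.17 and 0.26, and 0 of them passed. Efna5, a ligand of Epha7 and Epha4, was at 12.22, 12.36 and 12.22 in 2N control and 12.52, 12.40 and 12.44 in 2N knockdown cells, and at 12.22, 12.33 and 12.08 against 12.49, 12.41 and 12.20 in 4N cells. Its differences were 0.19 ± 0.11 (adjusted p = 0.243) and 0.16 ± 0.11 (adjusted p = 0.34). Ephb4, the receptor most often paired with Efnb2, differed by -0.09 ± 0.12 in 2N and 0.26 ± 0.12 in 4N cells and did not pass.

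Of the Eph receptors, Epha7 and Epha1 changed in opposite directions in all 3 classes. Epha7, a receptor for A class ephrins, was 9.64, 9.61 and 9.50 in 2N control and 8.73, 8.69 and 8.96 in 2N knockdown cells, 9.98 and 9.81 against 8.75 and 8.74 in 3N cells, and 9.28, 9.22 and 8.82 against 8.50, 8.13 and 8.60 in 4N cells. Control and knockdown arrays did not overlap within a class. Epha7 fell by 0.79 ± 0.15 (adjusted p = 0.00285) in 2N, 1.15 ± 0.17 (adjusted p = 0.000575) in 3N and 0.70 ± 0.15 (adjusted p = 0.0069) in 4N cells.

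Epha1, the founding member of the receptor family and a receptor for Efna1, was not detected on any of the 8 control arrays and was detected on all 8 knockdown arrays. It reached the test through the knockdown arrays alone, so that a difference was favoured by the filter. This rests on 1 of 4 Epha1 probes, the others being detected on 0 arrays with either siRNA. The values were 5.34, 4.94 and 5.35 against 6.10, 6.36 and 5.95 in 2N, 5.04 and 5.39 against 6.12 and 6.53 in 3N, and 4.95, 5.10 and 5.14 against 5.95, 6.11 and 5.78 in 4N cells. Against the detection limit of the control arrays, Epha1 was at least 1.31-fold higher in 2N, at least 1.50-fold higher in 3N and at least 1.16-fold higher in 4N knockdown cells (adjusted p = 0.000825, 0.00164 and 0.00119). Each array's detection limit lay between 5.62 and 5.81, so the knockdown arrays were just above it in 4N cells.

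Epha4, which binds ephrins of both classes, fell in 3N cells and did not pass in the others. It was 6.32 and 6.40 in 3N control and 5.77 and 5.37 in 3N knockdown cells, and fell by 0.79 ± 0.23 (adjusted p = 0.0382). In 2N cells it was 6.05, 5.18 and 5.86 against 5.95, 5.74 and 6.22, and in 4N cells 5.78, 5.90 and 5.71 against 6.26, 6.09 and 6.20. The 4N groups did not overlap, with a difference of 0.38 ± 0.19 (adjusted p = 0.2), and the 2N groups did, with 0.28 ± 0.19 (adjusted p = 0.347). The 3N call was lost without the control array of experiment 1 (adjusted p = 0.108) or 2 (0.151) or the knockdown array of experiment 2 (0.271), and 13 of the 16 arrays detected the probe. Epha2, another receptor for Efna1, had a difference of -0.60 ± 0.21 in 2N cells (adjusted p = 0.0592, or 0.00342 with the experiment as a block), lower in each of the 3 experiments. Epha3, Epha8 and Ephb4 did not pass in any class.

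The Robos and netrins did not pass in any knockdown comparison. Robo1, a receptor of the Slits, was 10.08, 10.72 and 10.41 in 2N control and 11.04, 11.06 and 10.48 in 2N knockdown cells, 10.89 and 11.22 against 10.99 and 11.21 in 3N cells, and 10.57, 10.95 and 10.71 against 10.94, 11.04 and 10.30 in 4N cells. The groups overlapped in all 3 classes, with differences of 0.46 ± 0.23, 0.05 ± 0.27 and 0.02 ± 0.23. Ntn3, a netrin, was 7.55, 7.90 and 6.85 against 8.11, 7.59 and 7.65 in 2N cells and 7.06, 7.40 and 6.77 against 7.42, 7.22 and 6.64 in 4N cells, with overlap in both.

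For 10 members more than 1 probe was detected, and each was taken as its own difference in a fit of every detected probe. Probes detected on 0 arrays, such as those of Epha1, Epha3, Nrp2, Robo4, Sema3f, Sema6d and Sema7a, were left out. Of 32 differences of further probes 27 lay on the same side of 0 as that of the brightest probe and 5 on the opposite side, and among the latter were probes of Epha3 (0.30 in 2N cells, against -0.16) and of Sema3b (-0.17 in 2N cells, against 0.15), with 0 of these past the threshold. The further Efna5 probe gave 0.55 in 4N cells (adjusted p = 0.0719), against 0.16 for the brightest. A further probe of Sema5a rose by 1.17 ± 0.20 in 2N cells (adjusted p = 0.00169) and, like the brightest one, did not pass in 3N and 4N cells. A further Sema7a probe was detected on both 3N control arrays and neither 3N knockdown array, and was at least 1.18-fold lower in 3N knockdown cells (adjusted p = 0.00128). The further Epha7 probes were near the detection limit. The one detected on 9 arrays was not detected on the 3N knockdown arrays and was at least 1.23-fold lower there (adjusted p = 0.0489), with -0.10 in 2N cells, where it did not pass. The one detected on 4 arrays was not detected on any knockdown array. Like the further Sema7a probe, it reached the fit through control arrays alone, so that a difference was favoured by the filter. It was at least 1.12-fold lower in 2N cells (adjusted p = 0.0307), and in 4N cells its signal gave no bound. The further Sema3f probe passed in 4N cells, at 0.71 ± 0.20 (adjusted p = 0.0277), and both Nrp1 probes gave 0.41 to 0.53 and did not pass.

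**Figure D3:**
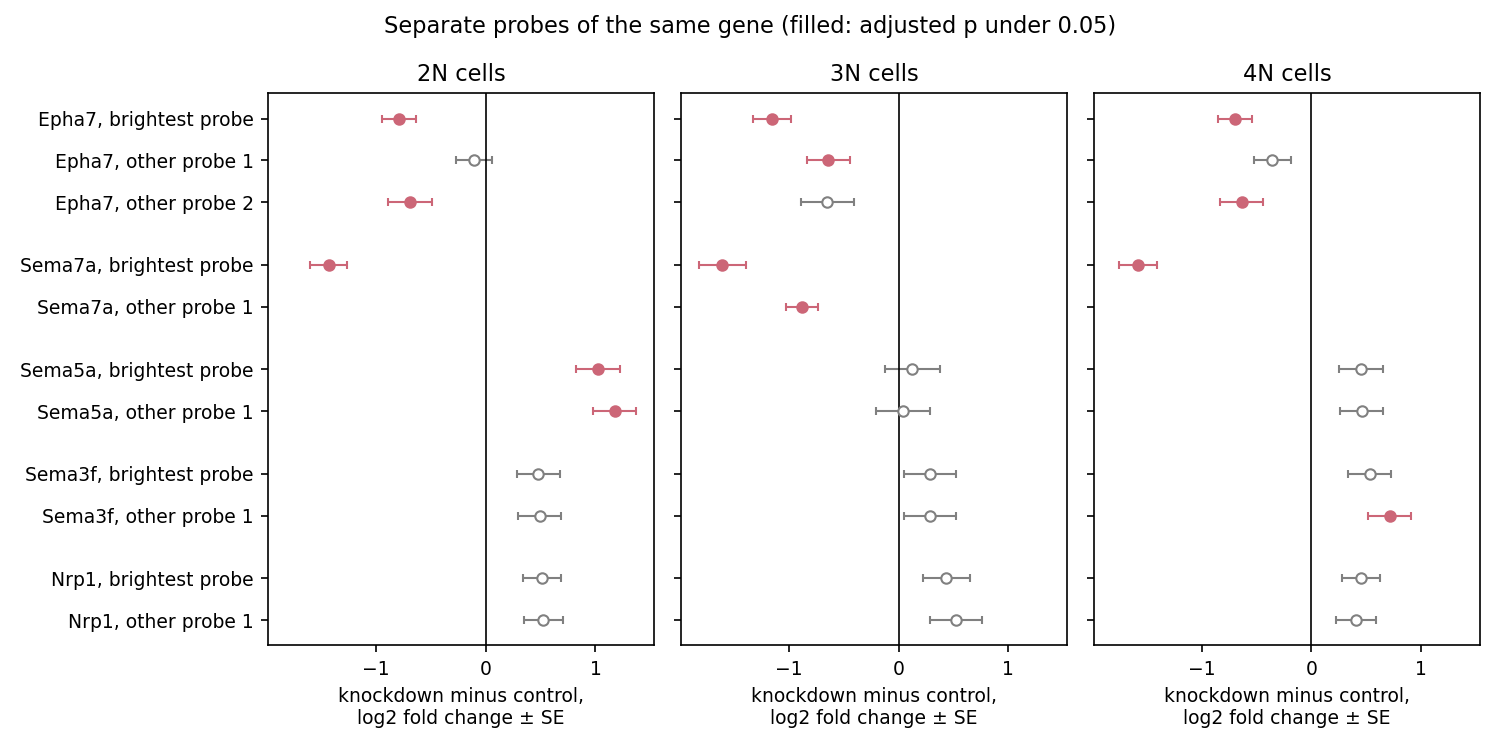
Log2 fold change of knockdown over control (x axis, log2 units, with SE) for each detected probe of Epha7, Sema7a, Sema5a, Sema3f and Nrp1, in 2N, 3N and 4N cells; the further Sema7a probe was measured in the fit with 3N cells only, and it and the Epha7 probe detected on 4 arrays were below the detection limit on every knockdown array, so their plotted values are not exact. Filled points passed an adjusted p of 0.05, and probes of the same gene lie on the same side of 0 in every panel, including both Sema5a probes above 1 in 2N cells.

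Differences between DNA contents were fewer. In control cells 2 members passed between 4N and 2N (6.06% of those measured, against 4.8% of all genes), and in knockdown cells 1 did (3.03%, against 5.34%). Plxna2, a receptor for class 3 and class 6 semaphorins, was 9.66, 10.25 and 9.82 in 2N control and 9.15, 9.24 and 9.13 in 4N control cells, and 10.11, 9.94 and 10.09 against 9.33, 9.21 and 9.01 in knockdown cells. All 4N arrays lay below all 2N arrays. Plxna2 was lower in 4N cells by -0.74 ± 0.14 in control (adjusted p = 0.0101) and -0.86 ± 0.14 in knockdown cells (adjusted p = 0.00312), and its 3N levels were 9.65 and 10.02 in control and 9.74 and 9.60 in knockdown cells, above all 4N arrays.

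Sema4a was higher in 4N than in 2N control cells by 0.52 ± 0.13 (adjusted p = 0.0394), where its 3 arrays of 7.46, 7.39 and 6.94 lay above the 2N arrays of 6.73, 6.85 and 6.67. This call was lost on leaving out any of 11 of the 12 arrays, with adjusted p up to 0.134. In knockdown cells the 4N arrays, 6.86, 6.84 and 6.80, overlapped the 2N arrays, 6.85, 6.75 and 6.73. Between 3N and 2N cells 0 members passed in control cells (against 4.81% of all genes; 8 members at an unadjusted p under 0.05), and 1 in knockdown cells (3.03%, against 6.1% of all genes). The latter was Efna4, a lipid-anchored ephrin, at 9.31, 9.29 and 9.22 in 2N and 8.81 and 8.58 in 3N knockdown cells, a difference of -0.58 ± 0.15 (adjusted p = 0.0378) that was lost on leaving out any of 6 of the 16 arrays, with adjusted p up to 0.328.

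**Figure D4:**
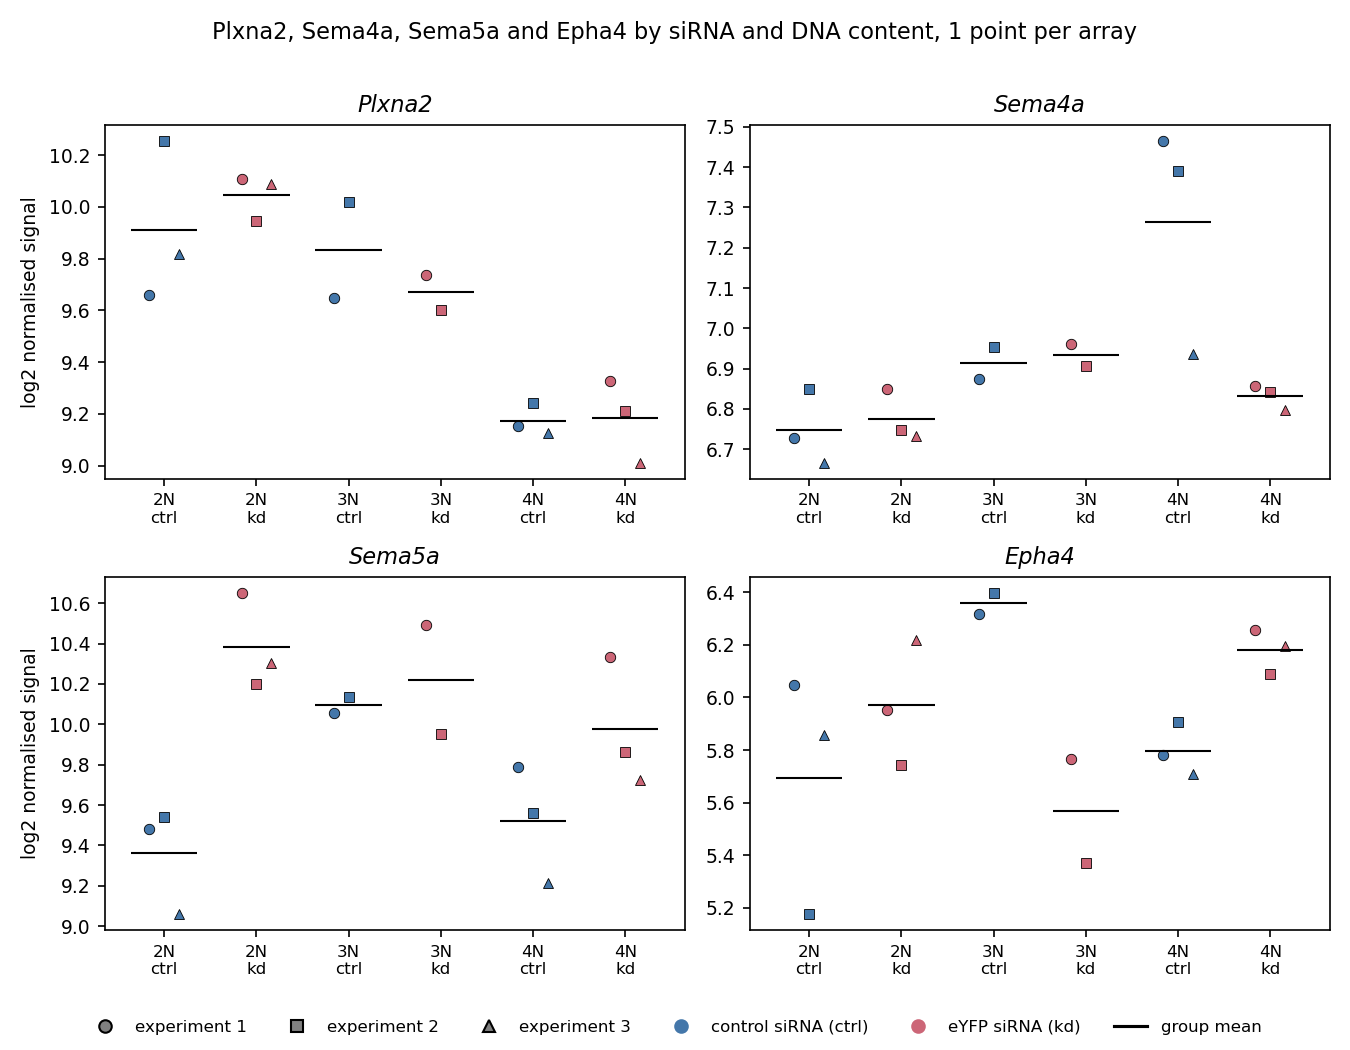
Log2 normalised signal (y axis) on each array for Plxna2, Sema4a, Sema5a and Epha4 by DNA content and siRNA, with the symbol showing the experiment and the line the group mean of 2 or 3 arrays. Plxna2 is lowest in the 4N groups with either siRNA, Sema4a is highest in 4N control cells, Sema5a is lowest in 2N and 4N control cells, and the 3N groups of Epha4 are ordered opposite to its 4N groups.

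The experiment number in the labels pairs the samples, and with it as a block the counts of members passing rose together with those of all genes. In 4N cells the knockdown count went from 7 to 11 (7 higher and 4 lower) with 25% of all genes passing. Between 4N and 2N it went from 2 to 5 in control and from 1 to 4 in knockdown cells, with 8.44% and 8.87% of all genes passing, and between 3N and 2N from 0 to 6 in control and from 1 to 3 in knockdown cells, with 8.47% and 11% of all genes passing. Sema3f entered all 4 of these DNA content comparisons, lower in 4N or 3N than in 2N cells. Between 4N and 2N control cells its difference was -0.65 ± 0.09 (adjusted p = 0.00167 with the block and 0.0846 without). Its adjusted p with the block was 0.00272 between 4N and 2N knockdown cells. Between 3N and 2N cells it was 0.0242 in control and 0.00232 in knockdown cells. Sema3a entered at 0.34 ± 0.08 in 4N over 2N control cells (adjusted p = 0.0353 with the block and 0.101 without), and Ephb4 at -0.39 ± 0.10 (0.0434 and 0.104). In knockdown cells Efna1 and Ntn3 were lower in 4N than in 2N cells with the block (adjusted p = 0.0381 and 0.0482), and Efna1 also in 3N cells (0.0436). In 3N over 2N control cells Epha4, Sema3a and Sema5a were higher with the block (adjusted p = 0.0436, 0.0334 and 0.0263) and Efna1 and Nrp2 lower (0.0246 and 0.0354), the 3N control level of Nrp2 being below detection.

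Whether the knockdown effect itself differed between DNA contents was tested directly. Of the 33 members 0 passed between 4N and 2N cells, and 0 of all 9146 genes did (0% of all genes), with 1 member and 293 genes at an unadjusted p under 0.05. The member was Sema4a, at -0.46 ± 0.18. The differences of the 3N from the 2N effect and of the 3N from the 4N effect also passed for 0 members (0% of all genes in both), with 4 members and 353 genes, and 2 members and 185 genes, at an unadjusted p under 0.05 in the limma fit.

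Other parts of the same pathways were described by lists of co-receptors and further ligands and of intracellular effectors. Of the former, 18 of 33 genes with a probe were measured in 2N and 4N cells, and after knockdown 4 rose and 0 fell in 4N cells (22.2%), 5 rose and 3 fell in 2N cells (44.4%), and 3 of 20 rose and 0 fell in 3N cells (15%), beside 19.1%, 21.4% and 12.9% of all genes. The medians were 0.03, -0.04 and -0.13 in 4N, 2N and 3N cells, beside -0.01 over all genes in each. Unc5c, a repulsive netrin receptor, was not detected on any control array but was detected on all knockdown arrays. It reached the test through the knockdown arrays alone, so that a difference was favoured by the filter, and it is among the genes counted above. Unc5c was at least 1.32-fold higher in 2N, 1.97-fold higher in 3N and 1.61-fold higher in 4N cells (adjusted p = 0.000123, 8.42e-05 and 0.000239). Dag1, the dystroglycan precursor, which binds Slits at the cell surface and links muscle fibres to laminin, rose by 1.02 ± 0.13, 0.94 ± 0.16 and 0.91 ± 0.13 in 2N, 3N and 4N cells. Flrt3, a ligand of Unc5 receptors, rose in 2N and 4N cells, and Rgma, a ligand of neogenin, in 2N and 3N cells. Nrcam, a co-receptor of neuropilin 2, Draxin, a netrin-binding ligand, and Neo1, neogenin itself, fell in 2N cells, by 0.91 ± 0.26, 0.43 ± 0.12 and 0.30 ± 0.10.

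Of the effectors, 44 of 53 genes with a probe were measured. After knockdown 5 rose and 8 fell in 4N cells (29.5%), 5 rose and 7 fell in 2N cells (27.3%), and 3 rose and 3 fell in 3N cells (13.6%), beside the same 19.1%, 21.4% and 12.9% of all genes, with medians of -0.07, -0.07 and -0.05. Limk2, a kinase that phosphorylates cofilin, was 8.62, 9.11 and 8.86 in 2N control and 10.09, 10.39 and 10.28 in 2N knockdown cells, and rose by 1.39 ± 0.14 in 2N, 1.56 ± 0.18 in 3N and 1.39 ± 0.14 in 4N cells. Pak3, a kinase activated by Rac and Cdc42, rose by 1.23 ± 0.23, 0.96 ± 0.28 and 1.08 ± 0.23. Rras, a small GTPase inactivated by plexins, rose in all 3 classes by 0.43 to 0.65, and Fes, a kinase that acts downstream of Sema3a, in 2N and 4N cells. Vav3 and Arhgap39, which act below Eph receptors and Robos, fell in all 3 classes, Vav3 by 0.49 ± 0.11, 0.66 ± 0.13 and 0.66 ± 0.11 in 2N, 3N and 4N cells. The Src family kinase Fyn was not detected on any knockdown array. It reached the test through the control arrays alone, so that a difference was favoured by the filter, and it is among the genes counted above. Vav2, another of the measured effectors, was likewise detected on control arrays alone. Fyn was at least 1.52-fold lower in 2N and at least 1.26-fold lower in 4N cells, while its 3N value did not pass. Tiam1 fell in 2N and 4N cells, Mras in 2N cells, and Dpysl3 in 3N and 4N cells.

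**Figure D5:**
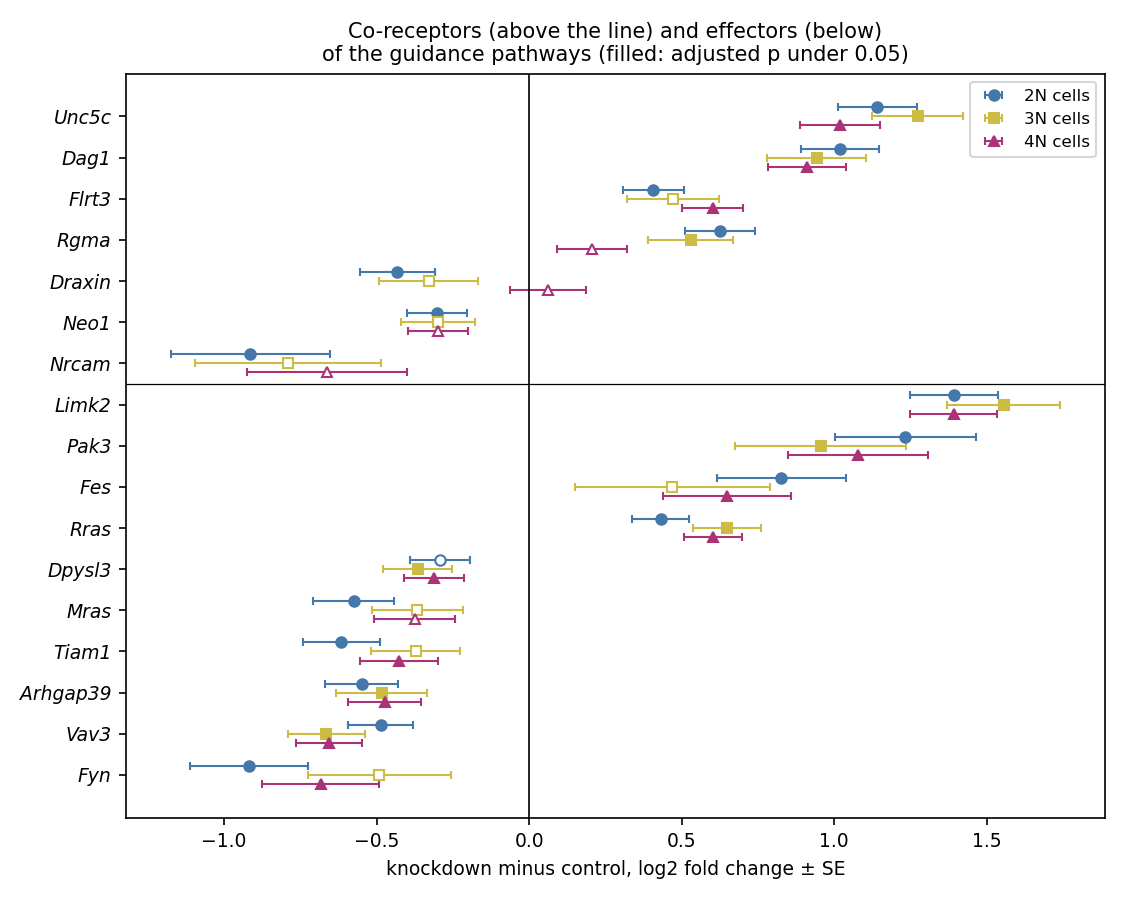
Log2 fold change of knockdown over control (x axis, log2 units, with SE) in 2N, 3N and 4N cells for the co-receptors and further ligands (above the line) and effectors (below it) with the largest changes past the threshold. Filled points passed an adjusted p of 0.05. Unc5c, Dag1, Limk2, Pak3 and Rras lie to the right and Vav3 and Arhgap39 to the left in all 3 classes. Unc5c was below the detection limit on every control array, so its plotted values are not exact.

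Other genes moved in the same comparisons. Over all genes tested, 10.9% rose and 10.4% fell in 2N, 6.46% and 6.47% in 3N, and 9.83% and 9.27% in 4N cells. Of 10 interferon response genes measured, 7 rose after knockdown in each class, with a list median of 0.90 in 2N, 1.39 in 3N and 1.24 in 4N cells. Of 11 skeletal muscle lineage genes, 6 rose and 1 fell in 2N, 3 rose in 3N and 4 rose and 2 fell in 4N cells, with Acta1, the skeletal muscle actin, higher by 2.74 to 3.07. Of 14 neural and Schwann cell markers 4 were measured and 1 rose, in 2N cells, and of 4 measured immune markers 1 rose in 2N, 2 in 3N and 2 in 4N cells. Among the immune markers, Cd3e and Lyz1 reached the test through the knockdown arrays alone, so that a difference was favoured by the filter. Both lay near the detection limit, with bounds of at least 1.10- to 1.38-fold. Of 13 fibroblast markers 8 were measured, with Col1a2, Lum, Dpt and Pi16 detected on 0 arrays. In 2N and 4N cells 3 of 7 tested rose and 1 fell, and in 3N cells 4 of 8 rose and 1 fell, and the summed level of the list, on the linear scale and in units of 1000, was 4.54 to 5.86 in 2N control and 6.74 to 9.24 in 2N knockdown cells. Dcn and Thy1 of the fibroblast list were also detected on knockdown arrays alone, and Chrnd of the muscle list on control arrays alone. The part of these lists in the changes of Sema7a, Efnb2, Epha1, Epha7 and the other members was not tested.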

How the data were processed

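Total RNA of 16 sorted samples was hybridised to 16 1-colour arrays. The deposited table, made by the authors with GenomeStudio, holds a mean intensity per probe before normalization and a detection value, a fraction that equals 1 minus the detection p; a second deposited table holds the authors' quantile-normalised intensity, which lay within 0.0327 log2 of quantile-normalised signals. Genome build: not given in the sources used here. In R 4.3.3 with limma 3.58.1, signals were background-corrected by normexp from the detection p (offset 16), converted to log2 and quantile-normalised. The quantile step assumes the same distribution of signals in every group, and changes of dim probes are dampened in the processed values. Probes detected (p under 0.05) on at least 3 arrays of a fit were kept, with the brightest probe for each gene. Group means were fitted with lmFit and eBayes, on 12 arrays (2N and 4N) or, for 3N contrasts, on all 16, with Benjamini-Hochberg adjustment over all genes, and errors are SE. The steps were tested on simulated data with 200 changed genes.

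A bound sets the bright group's mean against the lowest detected signal of the dim group's arrays. Experiment numbers pair the samples: deviations from group means correlated above 0.1 in 16 of 18 pairs of the same experiment (median 0.249) and in 2 of 36 of different experiments. The fit without the block is given, and the blocked value where it changes a call. Members and lists (co-receptors, effectors, muscle, endothelial, neural, immune, fibroblast, interferon and sort check genes) were chosen with earlier results of these data known. Named with values were members past the threshold, the brightest member of each class, and up to 3 genes each way of the other lists. The differences of the 3N knockdown effect from the 2N and 4N effects, and the counts over genes detected with both siRNAs, were added after seeing the data. BeadChip slides were not analysed here.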

Additional observations from a re-analysis of the deposited data

Results flagged for a closer look

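The knockdown effect on Epha4 ran in opposite directions in 3N and 4N cells. In 3N cells both experiments had lower values after knockdown (mean -0.79), and in 4N cells all 3 experiments had higher values (mean 0.38), which is what brought this receptor up. The difference of the effects was -1.17 ± 0.30 (SE), with an unadjusted p of 0.00157 in limma's fit and an adjusted p of 0.9997, so it failed the correction over 9306 genes. The 3N comparison rests on 2 arrays a group, and 1 of the 2 knockdown arrays of 3N cells detected the probe.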

How the results depend on the processing

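No called value changed its sign under an alternative. Of 1396 values of single genes under the alternatives, 1243 kept their sign and side of the threshold, 72 lost and 50 gained a call, and 31, from 13 uncalled results such as Robo1 and Plxna2 in 4N cells, changed sign and stayed uncalled. The calls of Sema7a, Epha1 and Epha7 in all 3 classes, Efnb2, Sema3a and Sema6d in 2N and 4N cells, Sema5a in 2N cells and Plxna2 held under every alternative that tested the gene and every left-out array (requiring detection on every array left Epha1 and Sema6d untested). The fit of every detected probe took each gene's probe with the lowest adjusted p, so a further probe could not remove a call there. One further Epha7 probe did not pass in 2N (-0.10, adjusted p = 0.719) and 4N cells (-0.35, adjusted p = 0.171). The other did not pass in 3N cells (-0.65, adjusted p = 0.104).

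Counts of members past the threshold that moved by over 1.5 times did so as follows, and the cause was not tested. For 4N against 2N control cells (2 members), median scaling gave 1 and no filter on dim probes 4. For 4N against 2N knockdown cells (1 member), no background correction and the authors' values each gave 2. For 3N against 2N control cells (0 members), no background correction, the authors' values, probes detected on every array and every detected probe each gave 1. For 3N against 2N knockdown cells (1 member), median scaling and no filter each gave 0. With the experiment as a replicate block, these 4 counts were 5, 4, 6 and 3, and the knockdown count in 4N cells was 11 against 7. The block gave 12 against 9 members in 2N and 10 against 7 in 3N cells, with 27.9% and 19.9% of all genes passing against 21.4% and 12.9%, and no call was lost with it.

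Leaving out 1 array at a time gave 6 to 7 members for knockdown in 4N, 7 to 10 in 2N and 3 to 9 in 3N cells, 1 to 2 for 4N against 2N control cells, 1 in knockdown cells, 0 to 2 for 3N against 2N control cells, 0 to 1 in knockdown cells, and 11 to 13 for the F test. The lowest 3N count, 3, came without the knockdown array of experiment 2, and 4 came without either control array. Where this left 1 array of 3N cells, it was assumed to vary like the other groups. With median scaling, the median of all genes for knockdown in 2N cells moved to -0.108. Probes near the detection limit (5.62 to 5.81) give compressed differences, and 2 arrays a group limit the 3N comparisons.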
